A study of Rattus norvegicus with 10 samples.

Results

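The genes described here were gathered as genes of motile cilia, the beating cell projections of the ependyma that lines the brain ventricles. The rule also took in genes with other roles, such as Spag5 and Spag9, and all are called cilium genes below. They were chosen by name: every gene whose symbol starts with Cfap, Dnah, Dnai, Drc, Rsph, Tekt, Spag, Ift or Bbs followed by a digit, plus Foxj1 and Tmem212. The rule found 71 of the 14217 genes named singly on the array, on 90 of 31042 probe sets, and the probe set with the highest mean stood for each gene. By family these were 19 Cfap, 4 Dnah, 2 Dnai, 3 Drc, 5 Rsph, 6 Tekt, 6 Spag, 17 Ift and 7 Bbs genes, with Foxj1 and Tmem212 besides.

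RNA came from right brain tissue of 10 male rats (Wistar, 7 weeks), with 1 Affymetrix array per rat. The 5 control rats breathed vapor of distilled water for 5 min, and the 5 DMHF rats breathed vapor of DMHF, a dimethyl hydroxy furanone with a sweet caramel smell, for the same time. The vapor came from 5 mL of liquid. A rest of 10 min before the rats were killed and a time before the dark period are given in the design text where it speaks of DMHF inhalation, and were taken to hold for the controls too. The tissue was bulk brain, in which the ependyma is a thin layer, and in such samples fewer cells of a type and less RNA per cell cannot be told apart.

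A motile cilium is an axoneme of microtubule doublets around a central pair. Dynein arms on the doublets make it beat, and radial spokes and the nexin-dynein regulatory complex pass signals between them. The transcription factor Foxj1, together with factors of the RFX family, switches on the genes of motile cilia. Intraflagellar transport (IFT) proteins carry cargo along cilia and the BBSome carries membrane proteins, and both also serve the non-motile primary cilia of neurons and glia. The beating cilia of the ependyma move cerebrospinal fluid.

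RFX factors bind a DNA motif called the X-box, which was looked for upstream of the cilium genes. RefSeq promoters (rat build GRCr8) were at hand for 59 of the 71 genes, and the 250 bases before each start were searched on both strands. The X-box was taken as GTNNCC, then 0 to 3 bases of any kind, then NGNAAC, where N is any base, and a promoter was counted once however many matches it held. A match was found in 9 of the 59 promoters (15.3%), against 1100 of 27457 (4.01%) over the whole promoter table. All but Spag5 of these 9 genes belonged to the axonemal families, where 8 of 35 promoters (22.9%) had a match, against 0 of 20 Ift and Bbs promoters. The forkhead motif GTAAACA, on either strand, was in 2 of the 59 promoters (3.39%) and in 3.25% of all. A match is a likeness of letters and does not show binding.

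In the following stretches of 60 bases, written 5′ to 3′ on the gene's strand, the capitals mark the X-box match. They show the motif in dynein chains (Dnah2, Dnai1), in Cfap90 and Cfap144, and in Tekt2 and Drc12. The values of Tekt2 and Drc12 ran most like those of Foxj1 among the cilium genes. Dnah1, Rsph9, Cfap300 and Cfap299, the next in that likeness, had no match, and no promoter of Foxj1 was at hand. Cfap20dc, Cfap298 and Spag5 also had a match and are not printed. These were nominally lower in DMHF, while the printed genes were all nominally higher. Of the axonemal families with Foxj1 and Tmem212, 75.6% were nominally higher, with or without a match. The correlation with Foxj1 within groups was 0.65 for Cfap144 and 0.57 for Cfap20dc. It was 0.32 for Cfap90, 0.23 for Dnai1, 0.13 for Dnah2, -0.06 for Spag5 and -0.09 for Cfap298. Whether the motif went with the direction or the likeness was not tested.
Tekt2, chr5:143907725-143907784, minus strand: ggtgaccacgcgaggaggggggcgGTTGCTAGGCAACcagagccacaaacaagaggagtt
Dnah2, chr10:54766035-54766094, minus strand: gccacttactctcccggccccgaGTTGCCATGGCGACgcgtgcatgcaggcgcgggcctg
Dnai1, chr5:61525957-61526016, plus strand: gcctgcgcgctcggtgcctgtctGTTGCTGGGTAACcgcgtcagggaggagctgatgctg
Drc12, chr8:53474491-53474550, plus strand: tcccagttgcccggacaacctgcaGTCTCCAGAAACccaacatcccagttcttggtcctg
Cfap90, chr1:36678304-36678363, minus strand: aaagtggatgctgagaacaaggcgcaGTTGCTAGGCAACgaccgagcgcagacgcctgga
Cfap144, chr10:44019282-44019341, minus strand: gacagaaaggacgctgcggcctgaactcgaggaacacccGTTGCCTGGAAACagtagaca
The matched letters of Tekt2 and Cfap90 were the same, and in Tekt2 the match ended 24 bases before the start.

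Array values are on the deposited scale, taken as log2, on which arrays differ very little. Across the 10 arrays the median SD was 2.20 millionths of a log2 unit for all probe sets and 2.53 for those of the cilium genes, which ran from 0.213 to 202. Differences are therefore given in millionths of a log2 unit, cannot be read as fold changes, and compare arrays for 1 probe set but not probe sets with each other. To set probe sets side by side, a difference was divided by the SD within groups (written SD below). This SD is the probe set's own, whereas the SE and p of limma also draw on the spread of all probe sets. A probe set that varies very little can thus stand far from 0 in SD while its difference is no larger than its SE. Values of single rats are deviations from the control mean of the probe set, in the order of replicates 1 to 5.

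No cilium gene passed the test for a difference between DMHF and control rats. Of the 71 genes, 0 had an adjusted p under 0.05 by limma, as in 0% of all probe sets (0 of 31042), and the smallest was 0.776, for Dnah7. At an unadjusted p under 0.05, limma listed 4 genes higher in DMHF of 71, where 2.98% of all genes were listed, and 1 lower, where 1.83% were. The higher ones were Dnah7, Tekt2, Foxj1 and Tmem212, and the lower one was Ift20. The count of 5 became 8 without control replicate 2, 2 without control replicate 3, 4 or 5 or DMHF replicate 2, and 3 without DMHF replicate 1 or 4. The 5 DMHF rats lay apart from all 5 control rats for 0 of the 71 genes, against 0.893% of all genes. That count became 3 without control replicate 2, 2 without DMHF replicate 5 and 1 without DMHF replicate 3. Groups lie apart more readily when a rat is left out. For both counts the share over all genes was not taken with a rat left out.

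Genes of the axonemal families and of the Ift and Bbs families, pooled by name, leaned to opposite sides in the deposited values. The axonemal pool also held genes without a structural role, such as Foxj1 and the assembly factors Cfap300 and Cfap298. Of the 41 genes of the Cfap, Dnah, Dnai, Drc, Rsph and Tekt families with Foxj1 and Tmem212, 31 were nominally higher in DMHF (75.6%), with a median difference of 0.41 within-group SD. Of the 24 Ift and Bbs genes 6 were nominally higher (25%), with a median of -0.31 SD. With single rats left out, the axonemal median ran from 0.25 SD (without control replicate 3 or 5) to 0.64 SD (without DMHF replicate 5). The Ift and Bbs median ran from -0.62 SD (without DMHF replicate 1) to -0.08 SD (without DMHF replicate 2). Over all genes 53% were nominally higher and the median was 0.05 SD. Over all 71 cilium genes 41 were nominally higher (57.7%) and the median was 0.13 SD, or -0.003 SD without DMHF replicate 1. With arrays set to a common median, which left 49.5% of all genes nominally higher, the counts were again 31 of 41 and 6 of 24, with medians of 0.11 and -0.14 SD. Quantile normalization left 28 of the 71 genes, and 59% of all genes still tested were nominally higher. There the counts were 13 of 16 axonemal and 4 of 8 Ift and Bbs genes, with medians of 0.38 and -0.02 SD. The families were pooled in this way after their values had been seen, and the difference between the pools was not tested.

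**Figure D1:**
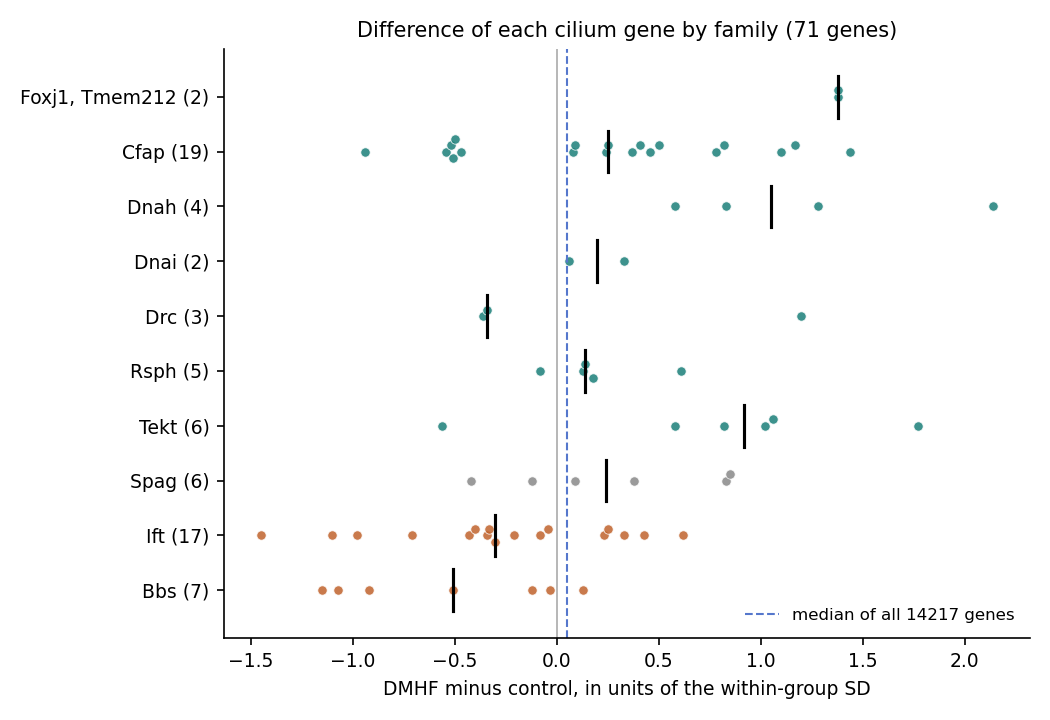
Difference between DMHF and control rats for each of the 71 cilium genes, in units of the within-group SD on the horizontal axis, by family on the vertical axis with the number of genes in brackets. Each point is a gene, black bars are family medians, and the dashed line is the median of all genes (0.05): Dnah points all lie above 0, at 0.58 to 2.14, and 6 of 7 Bbs points lie below 0.

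The lean of the axonemal pool ran beside the brightness of its probe sets. Genes with a mean below the array median of 7.24 were nominally higher in DMHF in 64.8% of 4967 cases over the whole array, against 46.6% of 9250 brighter genes. Among the cilium genes, 27 of the 33 dimmer ones were nominally higher (81.8%) and 14 of the 38 brighter ones (36.8%). In the median the dimmer cilium genes stood at 0.58 SD, against 0.26 SD for all dimmer genes, and the brighter ones at -0.16 SD, against -0.05 SD. Of the 24 Ift and Bbs genes, all but Bbs12 were among the brighter, as were 12 of the 41 axonemal genes, of which 6 were nominally higher (median -0.15 SD). What part brightness had in the lean was not tested.

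**Figure D2:**
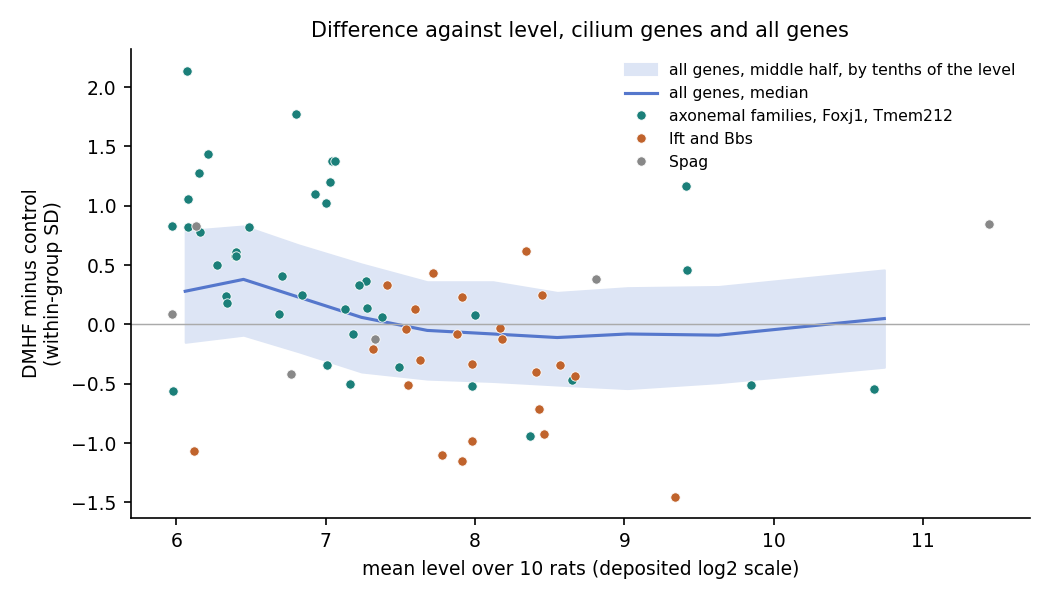
Difference in within-group SD (vertical axis) against the mean over the 10 rats on the deposited log2 scale (horizontal axis) for the 71 cilium genes, coloured by pool. The line is the median of all genes in 10 bins of the mean and the band spans the 25th to the 75th percentile: the median falls from 0.38 SD in the bin around 6.45 to -0.11 SD in the bin around 8.55.

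Foxj1, the regulator that turns on motile cilium genes, had a mean of 7.04. Relative to the control mean, control rats 1 to 5 stood at 9.97, 6.06, -6.78, 4.85 and -14.1 millionths of a log2 unit and DMHF rats 1 to 5 at 23.6, 22.2, 2.31, 19.8 and 3.30. DMHF rats 1, 2 and 4 lay above every control rat, while DMHF rats 3 and 5 lay among the controls. The group means were 14.2 millionths apart (SE 6.20), which is 1.38 SD, and limma gave an adjusted p of 0.901. The exact two-sided permutation test over all assignments of rats to groups gave p = 0.0794, where the smallest possible is 0.00794.

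Tmem212, a membrane protein known as an ependymal marker, showed a similar picture. Control rats stood at 19.0, 33.9, -12.8, -19.4 and -20.7 millionths from the control mean and DMHF rats at 50.6, 66.7, 42.2, 68.6 and -17.7. All DMHF rats but replicate 5 lay above every control, and replicate 5 lay among the lowest of all 10. It differed by 42.1 millionths (SE 18.3), or 1.38 SD (limma adjusted p = 0.901), and the exact permutation test gave p = 0.0635. A further probe set of Tmem212 differed by 40.2 millionths (SE 16.1), or 1.51 SD, also with an exact permutation p of 0.0635, and there DMHF replicate 5 stood at 30.7.

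Axonemal dynein heavy chains are the motors of the cilium. Dnah7, an inner-arm heavy chain, had the smallest p of all 71 genes. Its control rats stood at -3.97, 3.93, 0.303, 4.19 and -4.45 millionths and its DMHF rats at 6.51, 7.26, 3.87, 8.90 and 8.01. Only DMHF replicate 3 fell below the highest control rat. The difference was 6.91 millionths (SE 1.95), or 2.14 SD (limma adjusted p = 0.776). Dnah1, also of the inner arm, stood at 22.9, 16, -18.3, -6.05 and -14.6 in control rats and at 30.2, 24.1, 2.24, 37.7 and 11.3 in DMHF rats. The groups of Dnah1 overlapped in DMHF rats 3 and 5, and its difference was 21.1 millionths (SE 9.95), or 1.28 SD. Dnah17, an outer-arm chain known from sperm, stood at -0.601, 0.965, -0.767, -0.0840 and 0.487 in control rats and at -0.382, 0.112, 0.641, 0.519 and 0.917 in DMHF rats, with no DMHF rat beyond the controls on either side, and differed by 0.361 (SE 0.433), or 0.58 SD. Dnah2, the remaining heavy chain, differed by 3.14 millionths (SE 2.29), or 0.83 SD. All 4 Dnah genes were thus nominally higher, and 0 passed the test.

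The intermediate chains of the dynein arms barely differed. Dnai1, of the outer arm, stood at 1.89, 2.69, -3.52, -0.403 and -0.662 millionths in control rats and at -1.66, 4.6, 3.10, -1.17 and -0.575 in DMHF rats. Dnai7 stood at 0.408, 1.15, -6.63, 2.46 and 2.61 in control rats and at -3.53, 0.665, 1.36, 7.17 and -4.29 in DMHF rats. The groups of both genes overlapped widely. Their differences were 0.860 millionths (SE 1.6), or 0.33 SD, and 0.274 millionths (SE 2.55), or 0.06 SD.

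Tektins are filament proteins inside the doublet microtubules. Tekt2 stood at 1.4, 3.24, -1.59, -0.419 and -2.62 millionths in control rats and at 5.45, 6.67, 1.36, 6.29 and 1.81 in DMHF rats. As for Foxj1, DMHF rats 1, 2 and 4 were above all controls and rats 3 and 5 were not. The difference of Tekt2 was 4.32 millionths (SE 1.49), or 1.77 SD (limma adjusted p = 0.868). Tekt1 stood at 36.1, -3.00, -1.02, -3.89 and -28.2 in control rats and at 35.3, 12.5, -5.43, 21.3 and 48.4 in DMHF rats, where only replicate 5 exceeded the highest control. Its difference was 22.4 millionths (SE 13.2), or 1.02 SD. Tekt3 stood at 2.18, 0.596, -3.46, 1.07 and -0.388 in control rats and at 1.67, 0.645, 0.734, 3.01 and 3.11 in DMHF rats, a difference of 1.83 millionths (SE 1.07), or 1.06 SD. Among the others Tekt5l1 stood at 0.82 SD, Tekt4 at 0.58 SD and Tekt5 at -0.56 SD.

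**Figure D3:**
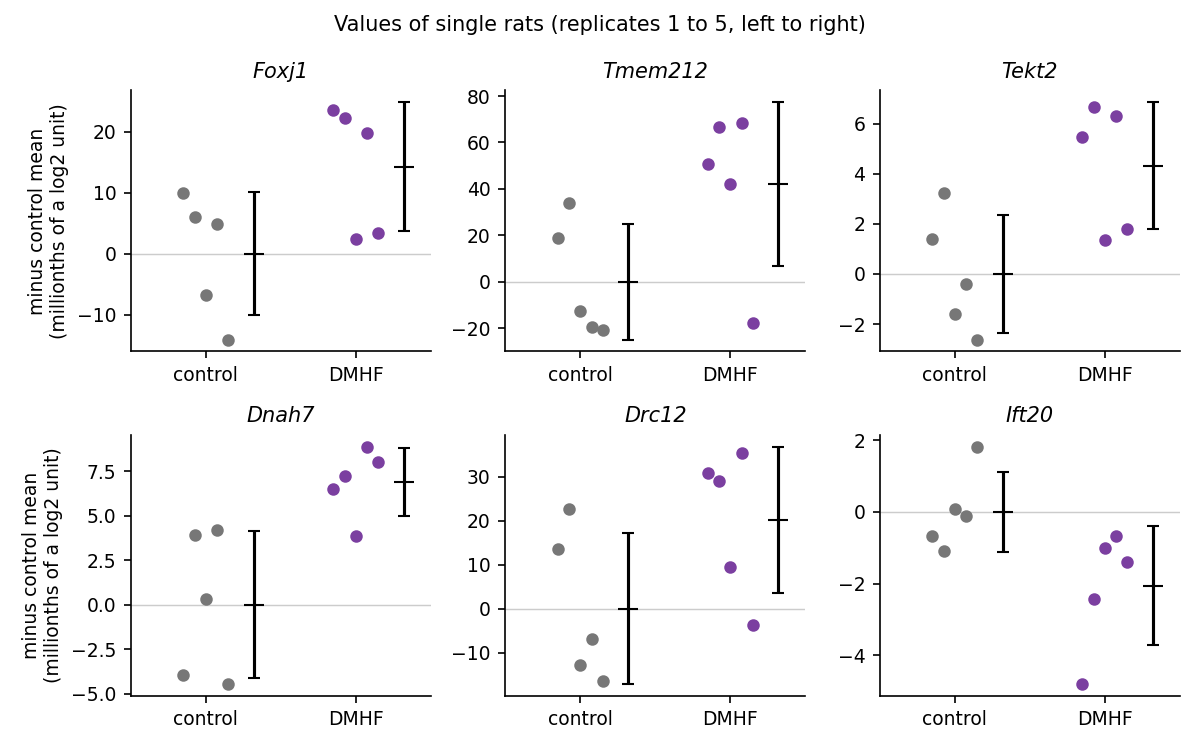
Values of single rats for 6 cilium genes, in millionths of a log2 unit from the control mean (vertical axes differ), in control (grey) and DMHF rats (purple), with replicates 1 to 5 from left to right in each group. Bars give the mean and SD of 5 rats: for Foxj1, Tekt2 and Drc12, DMHF rats 1, 2 and 4 lie above all controls, and for Ift20 DMHF rats 1, 2 and 5 lie below all controls.

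Of the nexin-dynein regulatory complex genes, Drc12 went with Foxj1 and the others did not. Drc12, known in ependyma under its older name Ccdc153, stood at 13.5, 22.6, -12.8, -6.84 and -16.4 millionths in control rats and at 30.8, 29.0, 9.54, 35.4 and -3.76 in DMHF rats. Its difference was 20.2 millionths (SE 10.2), or 1.20 SD (limma adjusted p = 0.931). Drc1 stood at -2.15, 8.93, -2.76, -5.03 and 1.0 in control rats and at -8.25, 2.21, 3.51, -1.38 and -4.79 in DMHF rats. The groups of Drc1 overlapped, with a difference of -1.74 (SE 3.11), or -0.34 SD. Drc3 stood at 0.556, 0.253, -0.240, -0.599 and 0.0292 in control rats and at 0.778, -0.485, -0.428, -0.819 and -0.00480 in DMHF rats, a difference of -0.192 (SE 0.386) or -0.36 SD.

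Radial spoke genes had a family median of 0.14 SD. Rsph1, of the spoke head, stood at 5.34, 0.924, -3.74, -1.4 and -1.12 millionths in control rats and at 4.09, -1.79, 0.885, 8.04 and -0.0848 in DMHF rats, a difference of 2.23 (SE 2.21) or 0.61 SD. Rsph9, also of the spoke head, stood at 4.32, 5.04, -1.18, -3.86 and -4.32 in control rats and at 5.00, 6.05, -3.38, 3.47 and -7.52 in DMHF rats, a difference of 0.724 (SE 3.15) or 0.14 SD. Rats 1 and 2 of either group were high in Rsph9 and rats 3 and 5 low, while rat 4 was low among the controls and high among the DMHF rats. Rsph3, of the spoke stalk, stood at -0.976, 1.86, -0.286, -0.363 and -0.240 in control rats and at 1.22, 0.110, -0.632, 0.121 and -0.0126 in DMHF rats, a difference of 0.161 (SE 0.581) or 0.18 SD. Rsph6a stood at 0.13 SD and Rsph10b at -0.08 SD.

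The 19 Cfap genes code for cilia and flagella associated proteins of many kinds, and 13 of them were nominally higher in DMHF (68.4%, median 0.25 SD). Cfap300, a factor in assembling dynein arms, stood at 1.01, 2.32, -0.973, -1.09 and -1.27 millionths in control rats and at 4.14, 3.84, -1.08, 2.66 and 0.926 in DMHF rats, a difference of 2.10 (SE 1.17) or 1.10 SD. Cfap107 stood at -0.204, 0.638, -0.347, -0.158 and 0.0718 in control rats and at 0.355, 0.370, 0.633, 0.648 and 0.195 in DMHF rats, a difference of 0.440 (SE 0.282) or 1.44 SD. Without control replicate 2, which lay at the level of the highest DMHF rats, the groups of Cfap107 would lie apart. Cfap20dc, whose probe set was the brightest of the family, stood at 1.07, 1.4, -2.81, 0.186 and 0.166 in control rats and at -0.354, -2.39, -2.78, 3.15 and -3.78 in DMHF rats, a difference of -1.23 (SE 1.38) or -0.54 SD.

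Other Cfap genes included proteins that bind to the doublet microtubules from within. Among these, Cfap20 stood at 1.17 SD, though its difference of 0.222 millionths was below its SE of 0.241. Cfap45 stood at 0.82 SD, Cfap161 at 0.50 SD, Cfap126 at 0.37 SD, Cfap276 at 0.24 SD and Cfap90 at 0.08 SD. Cfap100 stood at 0.78 SD, Cfap418 at 0.46 SD, Cfap77 at 0.41 SD and Cfap299 at 0.09 SD. Nominally lower were Cfap97 at -0.94 SD, Cfap69, a protein of the central pair, at -0.52 SD, Cfap36 at -0.51 SD, Cfap410 at -0.50 SD and Cfap298, which takes part in dynein arm assembly, at -0.47 SD.

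Cfap144, named here after its values were seen, had the largest within-group SD of the 71 genes, 91.6 millionths. Control rats stood at 131, 36.1, -55.2, -0.730 and -111 millionths and DMHF rats at 114, -85.8, -29.2, 121 and -7.04. High and low rats occurred in both groups, and the difference was 22.5 millionths (SE 55.1), or 0.25 SD. The dimmer probe set of Cfap144 followed the same rats, with a correlation of 0.97 in within-group deviations over the 10 rats, and stood at 0.94 SD.

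Genes of the Spag family share a name from sperm antigens rather than a place in the axoneme. Spag16, of the central apparatus, stood at -5.24, 2.74, 5.85, 0.664 and -4.01 millionths in control rats and at -0.00360, 9.84, 1.76, 11.4 and -1.15 in DMHF rats, a difference of 4.36 (SE 3.17) or 0.83 SD. Its other probe set had the other sign, at -1.55 SD. Spag9, a scaffold of kinase signalling and vesicle transport, stood at 0.126, 0.436, -0.484, -0.624 and 0.546 in control rats and at 0.616, -0.144, 0.316, 0.196 and 1.24 in DMHF rats, a difference of 0.444 (SE 0.381) or 0.85 SD. The 4 probe sets of Spag9 were divided, and 1 of them stood at -261 millionths, or -1.65 SD. Spag7 stood at 0.38 SD, Spag11a at 0.09 SD, Spag4 at -0.12 SD and Spag5, a protein of the mitotic spindle, at -0.42 SD.

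Of the 17 IFT genes 12 were nominally lower in DMHF, with a family median of -0.30 SD. Ift20, a member of the IFT-B complex that also works at the Golgi, stood at -0.677, -1.10, 0.0772, -0.113 and 1.82 millionths in control rats and at -4.79, -2.43, -1.01, -0.681 and -1.39 in DMHF rats. DMHF rats 1, 2 and 5 lay below every control and none lay above the control median. Its difference was -2.06 millionths (SE 0.878), or -1.45 SD (limma adjusted p = 0.895). Ift74, which binds tubulin together with Ift81, stood at 3.58, -0.300, 0.329, -0.252 and -3.35 in control rats and at 2.34, -7.22, -4.51, -5.16 and -2.55 in DMHF rats, a difference of -3.42 (SE 1.88) or -1.10 SD. Ift81 itself stood at -0.30 SD, with its 2 dimmer probe sets at 0.87 and 0.20 SD.

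Further IFT-B genes were Ift80 at -0.98 SD, Ift57 at -0.43 SD, Ift46 at -0.40 SD, Ift52 at -0.34 SD, Ift27 at -0.33 SD, Ift70a1 at -0.21 SD and Ift70b at -0.08 SD. Nominally higher in that complex were Ift172 at 0.62 SD, Ift88 at 0.43 SD, Ift22 at 0.33 SD and Ift25 at 0.23 SD. In the IFT-A complex, which serves the return journey, Ift122 stood at -0.71 SD, Ift43 at -0.04 SD and Ift140 at 0.25 SD.

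The BBSome genes had the lowest family median, -0.51 SD over 7 genes, of which Bbs9 (0.13 SD) alone was nominally higher. Bbs5 stood at 3.84, 2.21, -2.49, -2.76 and -0.789 millionths in control rats and at -5.63, -3.86, 0.00900, -8.14 and -0.606 in DMHF rats, a difference of -3.65 (SE 1.92) or -1.15 SD. Bbs12, a chaperonin-like helper of BBSome assembly, stood at 3.56, 4.09, -2.26, -1.0 and -4.39 in control rats and at -0.340, -10.3, -13.0, -6.46 and 2.05 in DMHF rats, a difference of -5.60 (SE 3.15) or -1.07 SD. In each of these genes 3 DMHF rats were below all controls, though not the same rats. Bbs4, the brightest of the family, stood at -1.28, -0.681, -1.10, 0.531 and 2.54 in control rats and at 0.352, -2.71, -3.66, -0.999 and -0.447 in DMHF rats, a difference of -1.49 (SE 0.997) or -0.92 SD. Bbs7 stood at -0.51 SD, Bbs1 at -0.12 SD and Bbs2 at -0.03 SD. The count of nominally higher Ift and Bbs genes, 6 of 24, became 10 without control replicate 2 or DMHF replicate 2 and 9 without DMHF replicate 3 or 4.

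Where a gene had several probe sets, these often disagreed. Of the 15 genes with more than 1 probe set, 6 had the same sign on all of them (Bbs4, Cfap144, Cfap36, Cfap69, Ift46 and Tmem212) and 9 had both signs. The other 56 genes rested on a single probe set.

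Between rats of the same group, the likeness of the cilium genes to Foxj1 was measured by the correlation of within-group deviations over the 10 rats. For the axonemal families with Tmem212 the median r was 0.34 over 40 genes, and 15 of them (37.5%) exceeded 0.5, against a median of 0.05 and a share of 13.4% over all genes. For the 24 Ift and Bbs genes the median was 0.18, and 1 gene exceeded 0.5. Marker lists of other cells, described below, had medians from 0.10 (pituitary) through 0.30 (endothelium) to 0.56 (meninges) and 0.75 (choroid plexus). The members most like Foxj1 were Tekt2 (0.91), Drc12 (0.86), Dnah1 (0.85), Rsph9 (0.84), Cfap300 (0.83) and Cfap299 (0.81). The least like were Ift140 (-0.85), Spag7 (-0.77) and Ift20 (-0.69). With each rat left out in turn the median of the axonemal genes ranged from 0.27 to 0.41. All genes share the arrays and any scaling of them.

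**Figure D4:**
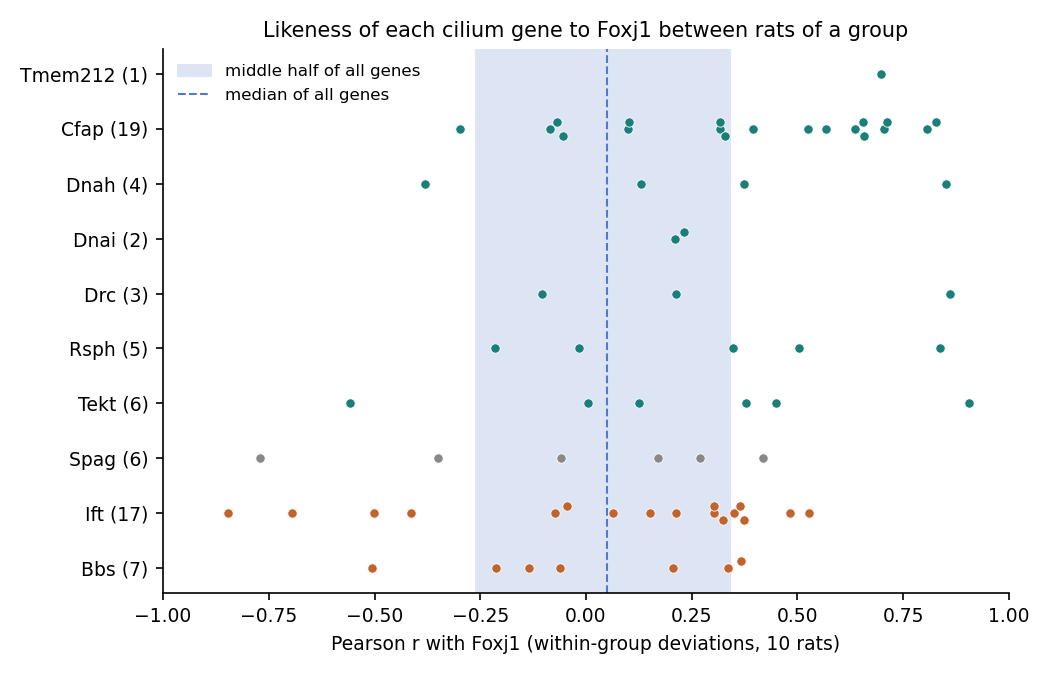
Pearson correlation with Foxj1 of within-group deviations over 10 rats (horizontal axis) for the other 70 cilium genes, by family (vertical axis, number of genes in brackets). The dashed line is the median of all genes (0.05) and the band their 25th to 75th percentile (-0.26 to 0.34): most Cfap points lie right of the median, up to 0.83, while Ift points reach down to -0.85.

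The rats fell into separate clusters in Foxj1. Of the 10, 6 rats lay 4.85 to 9.97 millionths above their group mean and the other 4, replicates 3 and 5 of both groups, stood at -14.1 to -6.78 from it, with none between, so that an r over all 10 rats includes the gap between the clusters. Within the 6 rats r with Foxj1 was 0.22 for Tmem212 (exact permutation p = 0.742, n = 6), 0.09 for Tekt2 (exact p = 0.854) and 0.25 for Drc12 (exact p = 0.686). For Dnah1 it was 0.43 (exact p = 0.378). Ttr, a choroid plexus gene, stood at -0.76 (exact p = 0.0986), and over these 5 relations the smallest adjusted p was 0.493. Spearman's rho within the 6 rats was -0.03 for Tmem212 (exact p = 1), 0.09 for Tekt2 (exact p = 0.919), 0.14 for Drc12 (exact p = 0.803), 0.49 for Dnah1 (exact p = 0.356) and -0.66 for Ttr (exact p = 0.175). The 6 rats were set apart by Foxj1 itself, which narrows its range, so these values do not settle whether the genes vary together within them. No other cilium gene was examined in this way, and the 4 other rats are too few to test.

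Outside the rule, the 5 genes most like Foxj1 over the 10 rats were Cltrn (0.95), Lrpap1 (0.94), F5 (0.94), Emb (0.93) and Psca (0.93). F5, coagulation factor V, is among the markers of the choroid plexus, the epithelium that secretes cerebrospinal fluid and adjoins the ependyma. In the choroid plexus list 9 of 12 genes had an r above 0.5 with Foxj1 (median 0.75), among them Ttr at 0.85. Of these 12 genes 11 were nominally higher in DMHF, with a median of 0.71 SD, and 0 passed the test. The exception was Kcnj13 at -1.20 SD. Nominally higher were 53% of all genes and 64.8% of those below the array median of 7.24. The median level of this list was 7.18. The mean of the list, in SD from the mean of all rats, ran from -1.35 to 0.63 in control rats and from -0.61 to 1.37 in DMHF rats. The list was measured for 12 of its 14 genes. Folr1 differed by 41.5 millionths (SE 17.4), Cldn2 by 46.0 (SE 26.6) and Ttr by 61.3 (SE 44.4).

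With the choroid plexus mean as a covariate, 20 of the 41 axonemal genes were nominally higher, with a median of -0.04 SD, and 4 of the 24 Ift and Bbs genes, with a median of -0.39 SD. In that fit 50.8% of all genes were nominally higher. Foxj1 then differed by 7.62 millionths and Tmem212 by 23.8, both at an adjusted p of 1 by limma, while Dnah7 kept 5.81 of its 6.91 millionths (adjusted p = 0.93). The count of nominally higher cilium genes was 27 of 71 there. The covariate was made from genes of which 11 of 12 were nominally higher in DMHF, with a median r of 0.75 with Foxj1. It thus ran partly with the groups, and this fit cannot tell the choroid plexus from the treatment. Whether the choroid plexus had a part in the differences of the cilium genes was not tested.

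**Figure D5:**
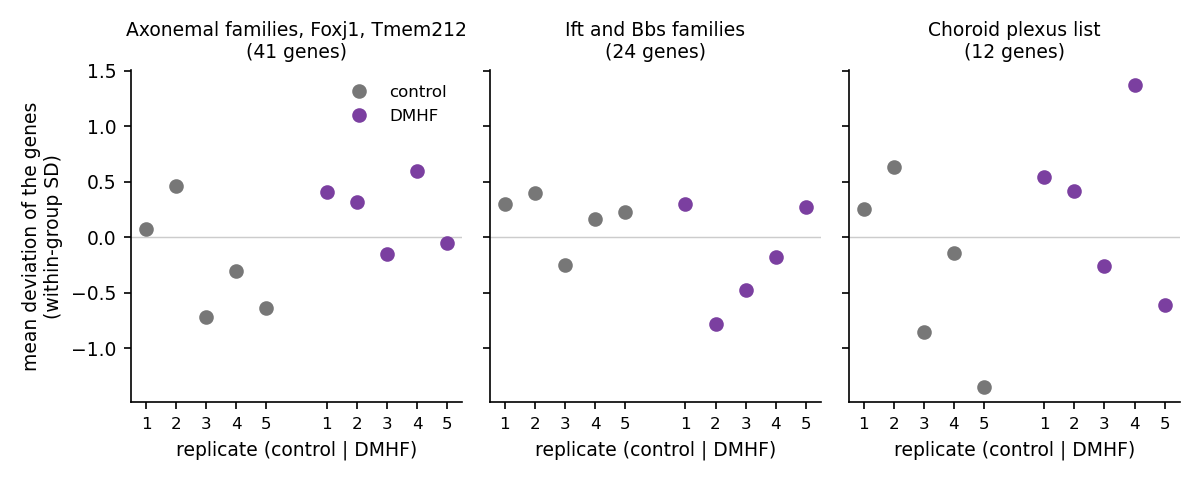
Mean deviation of the genes from the mean of all rats, in within-group SD (vertical axis), for each rat (horizontal axis, replicates 1 to 5 of control and of DMHF), for the axonemal pool, the Ift and Bbs genes and the choroid plexus list. In the axonemal and choroid plexus panels control replicates 3 and 5 are the lowest of all rats (-0.72 and -0.64, -0.85 and -1.35) and DMHF replicate 4 the highest (0.60 and 1.37).

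Averaged over its genes, the Dnah family lay higher in each DMHF rat (0.22 to 1.01 SD) than in any control rat (-1.23 to -0.11), although none of the 4 genes separated the groups alone. It was the 1 family of 10, counting Foxj1 with Tmem212 as a family, whose mean did so, and it was picked out after the values were seen. Its 4 probe sets had means of 5.97 to 6.39, among the dimmest bins of the array, in which 67.4% and 70.1% of all genes were nominally higher. The axonemal pool did not separate them: control rats ran from -0.72 to 0.46 and DMHF rats from -0.15 to 0.60. For the Ift and Bbs genes control rats ran from -0.25 to 0.40 and DMHF rats from -0.78 to 0.30.

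Other genes of the same machinery gave no call either. Of 19 measured ependymal and ciliary genes outside the rule 11 were nominally higher (57.9%) and 8 lower (median 0.15 SD). The median level of this list was 6.33, and 64.8% of all genes below the array median were nominally higher. Dynlrb2, a dynein light chain, stood at 1.07 SD and had an r of 0.90 with Foxj1. Mns1 stood at 1.21 SD, Ccdc113 at 1.05 SD and Efhc2 at 1.06 SD, with an r of 0.03, 0.51 and 0.04. Lowest of the list were Tm4sf1 at -0.59 SD and Rarres2 at -0.49 SD, named after their values were seen. Of 24 regulators of ciliation and dynein assembly factors 13 were nominally higher (54.2%, against 53% of all genes) and 11 lower (median 0.13 SD). Rfx1 differed by 2.35 millionths (SE 0.991), or 1.46 SD (limma adjusted p = 0.894), whereas Rfx3 stood at 0.13 SD, Rfx2 at -0.01 SD and Rfx4 at -0.43 SD. Rfx2, Rfx3 and Rfx4 were added after their values were seen. The r with Foxj1 was -0.46 for Rfx1, 0.59 for Rfx2, -0.84 for Rfx3 and 0.51 for Rfx4. Plk4, which starts centriole duplication, stood at -1.27 SD, and the assembly factors Dnaaf1 and Dnaaf5 at 1.10 and 0.80 SD.

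Of 21 further transport and transition zone genes, 9 were nominally higher (42.9%) and 12 lower, with a median of -0.26 SD, and 0 passed the test. That share lay near the 46.6% of all genes above the array median, where most of this list stood. Cep290 differed by -2.72 millionths (SE 0.859), or -1.97 SD (limma adjusted p = 0.830), and Tmem67 by -2.88 (SE 1.09), or -1.62 SD (limma adjusted p = 0.868). Both proteins stand at the transition zone at the base of cilia. Tctn1, also of that zone, stood at 0.97 SD, and Cluap1, of IFT-B, at -1.08 SD.

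Markers of other cells were read in the same fit. Nominally higher were 4 of 7 astrocyte genes (median 0.43 SD), 5 of 8 neuronal genes (0.06 SD) and 7 of 8 pituitary genes (0.70 SD). For the other lists these were 2 of 7 oligodendrocyte (-0.22 SD), 3 of 8 microglial (-0.20 SD), 2 of 7 endothelial (-0.39 SD) and 2 of 8 meningeal genes (-0.10 SD). Over the whole array this held for 53% of genes, 64.8% of those below the array median of 7.24 and 46.6% of the brighter ones. Of these lists only the pituitary one had a median level below the array median, at 6.41. Gfap, the astrocyte filament protein, which ependymal cells share in part, stood at 16.1 millionths (SE 6.22), or 1.56 SD. For Gfap 4 of 5 DMHF rats lay above all controls (limma adjusted p = 0.876). The other astrocyte genes were divided, with Slc1a3 at 0.78 SD, Aldh1l1 at 0.77 SD and Aqp4 at 0.43 SD. Nominally lower were S100b at -1.47 SD, with 3 DMHF rats below all controls, Slc1a2 at -0.85 SD and Gja1 at -0.18 SD. The difference of S100b was -0.192 millionths (SE 0.227). The median r with Foxj1 was 0.56 for the meningeal list, 0.30 for endothelium, and 0.27 for both oligodendrocytes and microglia. It was 0.26 for astrocytes, 0.15 for neurons and 0.10 for the pituitary list, against 0.34 for the axonemal pool. The largest differences in these lists were those of the pituitary hormone subunits Cga, at 5397 millionths (SE 1259) or 2.58 SD with 5 of 5 DMHF rats above all controls, and Tshb, at 5287 (SE 1608) or 1.98 SD with 2 of 5. The limma adjusted p was 0.730 for Cga and 0.815 for Tshb. None of the genes of these lists passed the test, and what part these cells had in the cilium genes was not tested.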

How the data were processed

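The authors deposited 1 table with 31099 probe sets and a column for each of 10 arrays. Its values ran from 5.25 to 14.22, and the deposited values were taken as log2 from that range, since the base is not stated. R 2.7.2 is named in the submitters' processing notes, while the sources used here do not give the background correction, normalization or summary. After 57 control probe sets were set aside, DMHF was compared with control over 31042 probe sets with limma 3.58.1 in R 4.3.3 (lmFit, eBayes, 2-sided, no covariate), with Benjamini-Hochberg adjustment over all probe sets and a threshold of 0.05. Every adjusted p is from limma. The fit was tested on simulated data. Symbols came from GEO's platform annotation, in which 20826 probe sets name 1 gene, 436 several and 9780 are unnamed here. All 90 member probe sets were found in the RefSeq table of GRCr8, with 0 symbols changed. Members and gene lists were chosen with earlier results of these data known, so no list was tested. Members with values per rat were Foxj1, Tmem212 and, per family, the 2 with the smallest p and the brightest, with up to 4 genes by p from other lists. Cfap144 was added after its values were seen. The labels do not say whether rats with the same replicate number were paired, and the main fit did not pair them. The number of arrays limits the precision.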

Additional observations from a re-analysis of the deposited data

Results flagged for a closer look

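In groups of 5 rats, a value whose gap to its neighbour took up most of the group's range was found in 2 of 52 groups of the named genes, where chance gives about 1 in 20. In Dnai7, control replicate 3 stood at -6.63 millionths from the control mean and the other 4 controls between 0.408 and 2.61. In Rsph3, control replicate 2 stood at 1.86 and the other 4 controls between -0.976 and -0.240.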

How the results depend on the processing

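No cilium gene passed an adjusted p of 0.05 by limma under any of the 20 alternatives run. The count at an unadjusted p under 0.05, 5 with all arrays, was 10 with a replicate block, 1 among the brighter 38 genes, 2 after quantile normalization, 8 over all 90 probe sets, and 2 to 8 with single rats left out. The share over all genes was not taken in these settings. Deviations of rats with the same number correlated at 0.029 to 0.273, and those of the other pairs of rats at -0.184 to 0.204. Replicates 1 (0.214) and 3 (0.273) lay above that range. With the block the limma adjusted p of Foxj1 was 0.28, against 0.901 without it. Whether rats with the same number shared a batch was not tested. Nominally higher were 27 genes with the choroid plexus covariate, 14 of the brighter 38, 20 of the 28 left after quantile normalization, and 35 to 46 with single rats left out. Of all genes, 50.8% were nominally higher with the covariate, 46.6% among the brighter and 59% after quantile normalization. With single rats left out that share ran from 50.4% to 55.2%. Genes whose groups lay apart numbered 1 with a common array median and 0 to 3 with single rats left out, again without the share over all genes. No such count exists for the block, the covariate, quantile normalization, array weights or the other variance model. The median difference was -0.106 SD with the covariate, -0.165 among the brighter genes and -0.003 to 0.292 with single rats left out. Of 438 values of the 26 named genes under alternatives, 18 changed sign. With the covariate these were Dnai7 (-1.22), Rsph3 (-0.115) and Rsph9 (-2.35), after quantile normalization Dnai7 (-8.66) and Bbs12 (5.37), and with the most variable probe set Spag16 (-12.6) and Spag9 (-261). With single rats left out Dnai7 ran from -1.45 to 1.42, Dnai1 from -0.075 to 1.53, Drc1 from -3.05 to 0.492, Rsph3 from -0.103 to 0.627 and Rsph9 from -0.609 to 2.79 millionths. After quantile normalization, which left 28 of the 71 genes, Dnah7, Cfap300 and Dnai1 differed by 0, Tmem212 by 15.1, Dnah1 by 12.5, Spag16 by 1.99, Cfap107 by 11.7, Tekt3 by 27 and Ift20 by -41.9 millionths. The causes were not tested.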
